A study of Mus musculus with 93 samples.

Results

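Apolipoproteins and lipoprotein assembly genes encode proteins with which the liver builds, secretes and remodels its lipoproteins. The set held 8 genes chosen by name, with earlier results of these data known. Every probeset whose platform symbol is 1 of these genes was used. Of the 8 genes, 7 (Apoa1, Apoa2, Apoa4, Apoa5, Apob, Apoc3 and Mttp) had probesets in the table, 13 in all, among 6661 genes. Lipc, the gene of hepatic lipase, was not analysed here. All 13 probesets passed the filter on variation, 6234 genes did so in total, and each gene is described by its brightest probeset.

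Triglyceride leaves the liver in very low density lipoprotein (VLDL), a particle that forms when microsomal triglyceride transfer protein, encoded by Mttp, loads lipid onto the growing chain of apolipoprotein B. Apolipoproteins A-I and A-II are the main proteins of high density lipoprotein, while APOC3 slows and APOA5 speeds the clearance of triglyceride from the blood. PPARα, a nuclear receptor activated by fatty acids and by fibrate drugs, is known as a regulator of several of these genes in liver.

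Gene expression was profiled in the livers of 93 male mice, with 1 Affymetrix array per mouse. After a fast of 4 h the mice received 400 µl by gavage, containing a synthetic triglyceride made of a single fatty acid, or 4 mg of a PPARα agonist, WY14643 or fenofibrate, suspended at 10 mg/ml in a cellulose vehicle (CMC, 0.5%), or the vehicle alone as control, and livers were taken after 6 h. All mice had been kept on a purified run-in diet with olive oil as its fat. PPARα −/− mice (129S4/SvJae), which lack the receptor in every tissue, were set against WT mice of another substrain (129S1/SvImJ), so that genotype and substrain cannot be told apart. Run 1 comprised WY14643, fenofibrate, oleic acid (C18:1), eicosapentaenoic acid (C20:5), docosahexaenoic acid (C22:6) and controls, and run 2 comprised C10:0 (capric acid), C18:2 (linoleic acid) and C18:3 (linolenic acid) with controls of its own. The 20 groups held 5 mice each, except for 4 in PPARα −/− C20:5, WT WY14643, WT C18:2 and the run 2 controls of each genotype, and 3 in the run 1 WT controls, which all comparisons of run 1 treatments with WT controls share. Labelled ages were 12 to 20 weeks for WY14643 and the run 1 controls and 8 to 24 weeks for all other mice.

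Signals are GC-RMA intensities on the log2 scale, and a change is a difference of log2 means with its standard error (SE) from limma's moderated test. A gene was called at a Benjamini-Hochberg adjusted p under 0.05 over all 10349 probesets tested. The median signal of an array, over the probesets of the table, was 135.9 to 144.8 in run 1 and 154 to 167.6 in run 2. Treatments were compared only with the controls of their own run and genotype. A probeset of Ppara separated the genotypes, at 5.94 to 7.93 in PPARα −/− livers and 8.10 to 9.52 in WT livers, and 2 others overlapped. The 5 hepatocyte markers in the table had mean signals of 12.06 to 14.01, and Fabp2, the only enterocyte marker in it, had 9.92. In whole liver, fewer cells of a type and less RNA per cell cannot be told apart.

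Mttp rose in 3 comparisons and Apoa5 fell in 1, all 4 of them in WT mice. No other gene of the set was called for any treatment. These are 4 of 112 gene values (7 genes in 16 comparisons with controls), and in PPARα −/− mice none of 56 was called. Before adjustment, limma's p was under 0.05 for 7 of 56 values in PPARα −/− mice and 9 of 56 in WT mice. For these and later counts at an unadjusted p under 0.05, the share of all genes was not counted. Over the 6234 genes, the share called in PPARα −/− and in WT mice was 0% and 28.5% for WY14643, 0.0642% and 14.3% for fenofibrate, 15.6% and 5.82% for C22:6, 10.3% and 3.51% for C18:3, and 7.04% and 1.59% for C10:0. For C18:1 it was 1.28% and 0%, for C20:5 0.0321% and 0.561%, and for C18:2 0.305% and 0.433%.

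**Figure D1:**
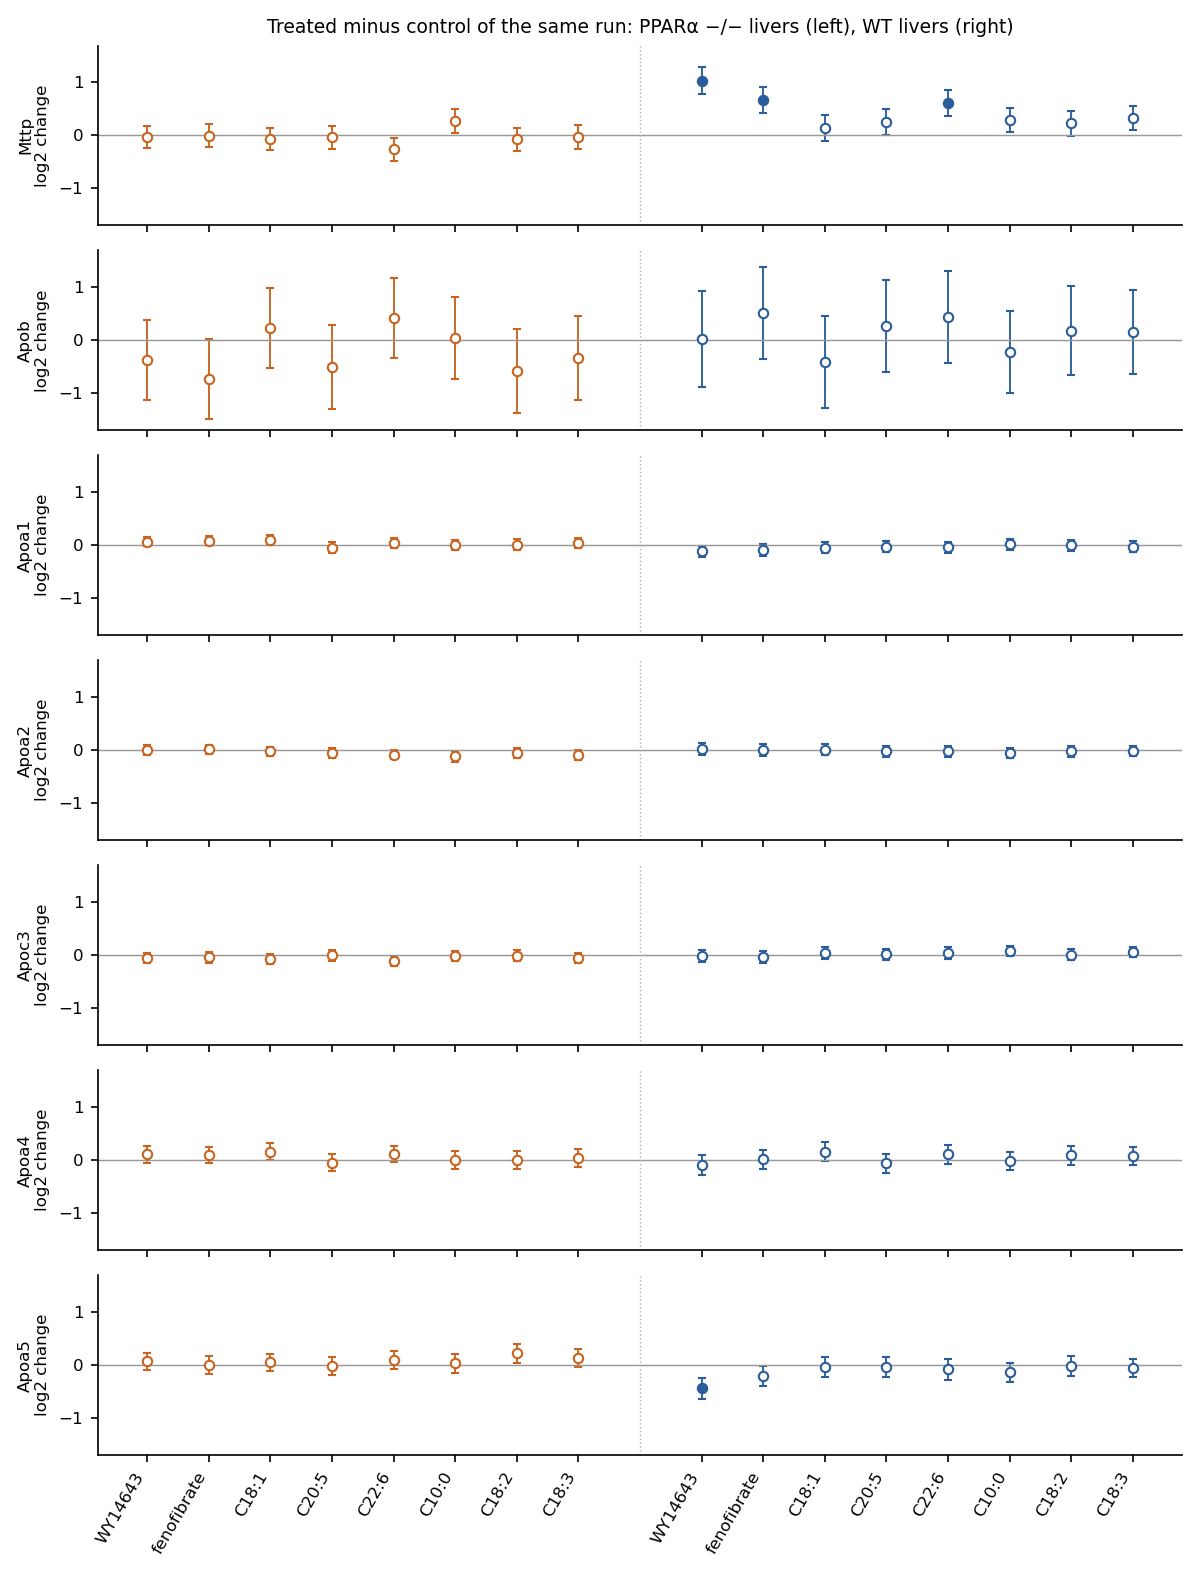
Change in log2 signal (treated minus control of the same run) of the 7 genes for 8 treatments in PPARα −/− and WT livers, with 95% confidence intervals; filled points have an adjusted p under 0.05. Filled points are Mttp in WT livers after WY14643 (1.04), fenofibrate (0.67) and C22:6 (0.61) and Apoa5 in WT livers after WY14643 (-0.44), and the widest intervals are those of Apob.

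The sequences before the start sites of the genes that were called for a treatment are shown first, as RefSeq gives them for mouse build GRCm38.p6. Each is the 250 bases before the start site, and capitals mark matches to 4 motifs searched on both strands. The motifs were the nuclear receptor core AGGTCA (in 14% of 32851 such windows), the direct repeat DR1 that PPARα with its partner RXR can bind, here 2 copies of AGGNCA with 1 base between them, which may contain that core (0.338%), the HNF4 site CAAAGTCCA (0.384%) and the TATA box TATAAA (12.4%). The Mttp window, chr3:138143419-138143668 on the minus strand, holds none of them. The Apoa5 window, chr9:46268358-46268607 on the plus strand and 1 of 2 overlapping windows of the gene, holds a TATA box at -31.
Mttp: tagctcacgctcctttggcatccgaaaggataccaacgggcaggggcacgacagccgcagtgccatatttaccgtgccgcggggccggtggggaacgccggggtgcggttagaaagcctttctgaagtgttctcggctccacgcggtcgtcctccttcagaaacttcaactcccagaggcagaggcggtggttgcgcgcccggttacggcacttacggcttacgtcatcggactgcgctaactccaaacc
Apoa5: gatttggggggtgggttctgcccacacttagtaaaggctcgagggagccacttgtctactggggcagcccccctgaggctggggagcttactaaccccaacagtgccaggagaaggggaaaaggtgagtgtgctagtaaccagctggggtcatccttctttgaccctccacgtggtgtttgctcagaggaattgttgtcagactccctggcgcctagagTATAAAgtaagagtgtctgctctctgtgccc

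Mttp was the gene of the set with the most calls. WY14643 gave signals of 11.19, 11.19, 11.20 and 11.11 in WT livers, against 10.00, 10.24 and 10.16 in the WT controls. Every treated liver lay above every control, and Mttp rose by 1.04 (SE 0.13, adjusted p = 1.4e-09), or 2.05-fold. Fenofibrate gave 10.65, 11.07, 10.83, 10.76 and 10.69 in WT livers, again without overlap with the controls, for a rise of 0.67 (SE 0.12, adjusted p = 4e-05). C22:6 gave 10.69, 10.86, 10.52, 10.65 and 11.02, also above every control, for a rise of 0.61 (SE 0.12, adjusted p = 0.00069). When the spread was estimated from the compared groups alone, the C22:6 value was no longer called (adjusted p = 0.094). Fenofibrate and C22:6 mice span a wider labelled age range than these controls, and the part of age in the result was not tested.

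The other triglycerides gave smaller Mttp values in WT livers, none of them called. C18:3 livers, at 10.72, 10.84, 10.66, 10.67 and 10.67, lay above all WT controls of run 2, at 10.33, 10.44, 10.47 and 10.26, with a change of 0.34 (SE 0.11, adjusted p = 0.088), where 3.51% of genes were called. For C10:0 the change was 0.30 (adjusted p = 0.19), and leaving out 1 mouse gave 0.25 to 0.39, with a call without WT C10:0 replicate 3 alone (0.39, adjusted p = 0.045). The changes were 0.25 for C20:5 (adjusted p = 0.53), 0.22 for C18:2 (adjusted p = 0.47) and 0.13 for C18:1 (adjusted p = 0.88). Among the WT C20:5 livers replicate 5 had 9.97, and the other 4 lay between 10.46 and 10.53.

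In PPARα −/− livers, Mttp signals after WY14643 were 10.19, 10.03, 10.14, 10.16 and 9.87, against 10.14, 10.14, 10.00, 10.02 and 10.23 in the PPARα −/− controls. The groups overlapped, and the change was -0.03 (95% confidence interval -0.24 to 0.18). For fenofibrate it was -0.01 (interval -0.22 to 0.21). C22:6 gave 9.90, 9.45, 9.60, 10.05 and 10.21, the lowest mean of the 20 groups and the one with the widest spread (SD 0.31), and a change of -0.27 (SE 0.11, adjusted p = 0.079). That value passed the threshold without PPARα −/− C22:6 replicate 4 (-0.32, adjusted p = 0.038) or replicate 5 (-0.36, adjusted p = 0.02), and was -0.17 (adjusted p = 0.39) without replicate 2. C10:0 gave 0.26 (adjusted p = 0.15), and the other 4 triglycerides gave -0.08 to -0.04.

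The response of Mttp differed between the genotypes for 3 treatments. Together with 1 such call for Apoa5, these were 4 of 56 differences (3.7% over all genes and treatments). The change in PPARα −/− mice minus the change in WT mice was -1.07 for WY14643 (SE 0.17, adjusted p = 1.6e-06), -0.88 for C22:6 (SE 0.16, adjusted p = 4e-04) and -0.67 for fenofibrate (SE 0.16, adjusted p = 0.0045). Such differences were called for 17.6% of all genes with WY14643, 3.35% with C22:6 and 7.56% with fenofibrate. The C22:6 difference was not called in a fit of the compared groups alone (adjusted p = 0.11). For C10:0 the difference was -0.03 (interval -0.36 to 0.29), and for the remaining 4 triglycerides it was -0.37 to -0.20, without a call.

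**Figure D2:**
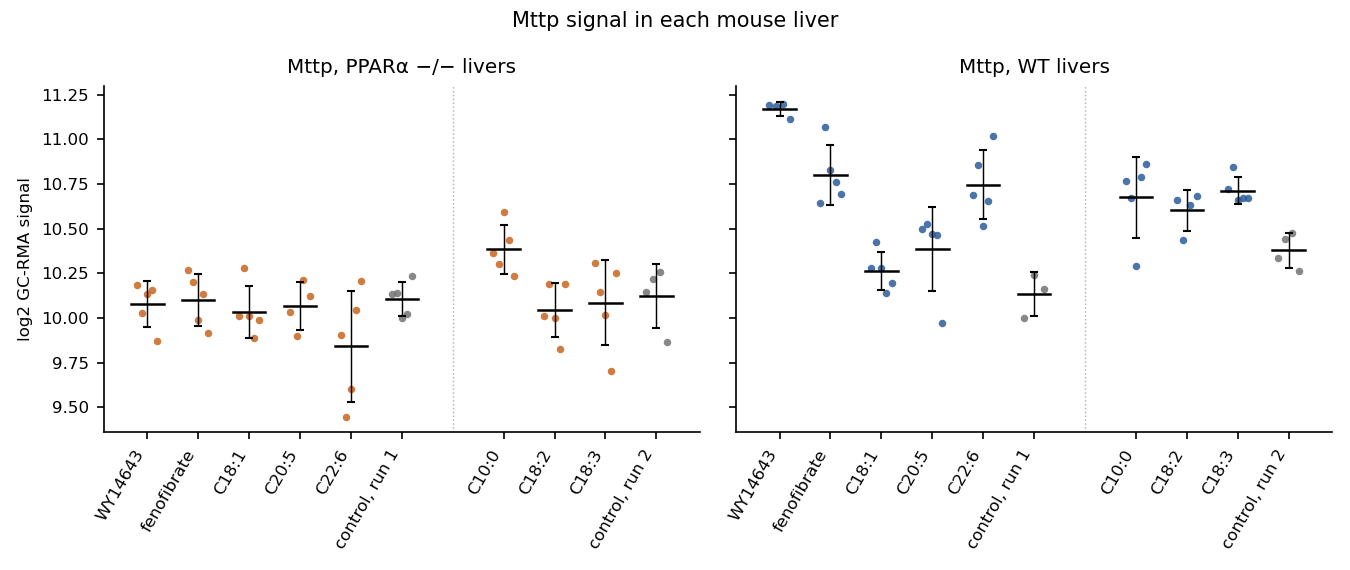
Mttp signal (log2) in each mouse liver, PPARα −/− on the left and WT on the right, with the dotted line between run 1 and run 2 and controls in grey; points are mice, bars means and error bars SD. Means of the PPARα −/− groups lie between 9.84 and 10.38, and the 4 WT livers after WY14643 lie between 11.11 and 11.20.

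A further Mttp probeset gave in WT mice 1.09 for WY14643 (adjusted p = 4.7e-07), 0.69 for fenofibrate (adjusted p = 0.0014) and 0.54 for C22:6 (adjusted p = 0.034). The difference between the genotypes was called on it for WY14643 (-1.04, adjusted p = 3e-04) and C22:6 (-0.86, adjusted p = 0.014) and was -0.64 for fenofibrate (adjusted p = 0.052). After the group means were removed, and with them the treatment effects, signals of the 2 probesets correlated with r = 0.512 over the 93 arrays. Mean Mttp signal was lower in PPARα −/− than in WT livers in all 10 conditions, by between 0.03 (run 1 controls) and 1.09 (WY14643), without overlap in 6 of them. Of all genes, 6.19% had no overlap in that direction in at least as many conditions. Between controls the difference was -0.03 in run 1 (adjusted p = 0.93) and -0.26 in run 2 (adjusted p = 0.21), where signals were 10.15, 10.22, 10.26 and 9.86 in PPARα −/− controls and 10.33, 10.44, 10.47 and 10.26 in WT controls.

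The triglycerides, all given at 400 µl, and the agonists, both given at 4 mg, were also compared with each other, in 14 pairs over both genotypes. Of the resulting 98 gene values 1 was called (0.874% over all genes and pairs), Mttp in WT mice with C22:6 against C18:1, where the chain of C22:6 is longer and has more double bonds. The difference was 0.48 (SE 0.11, adjusted p = 0.0021), with C22:6 livers at 10.52 to 11.02 and C18:1 livers at 10.14 to 10.42, and 4.32% of all genes were called. The further probeset gave 0.40 (adjusted p = 0.095). In PPARα −/− mice the same pair differed by -0.19 (interval -0.41 to 0.02). In WT mice C22:6 and C20:5 differed by 0.36 (interval 0.15 to 0.57, adjusted p = 0.34), C20:5 and C18:1 by 0.12 (interval -0.09 to 0.33) and C18:3 and C18:2 by 0.11 (interval -0.11 to 0.34). WY14643 and fenofibrate differed by 0.37 in WT mice (interval 0.14 to 0.60, adjusted p = 0.065), with all WY14643 livers higher and 2.15% of genes called. Leaving out 1 mouse gave 0.33 to 0.44, with a call without WT fenofibrate replicate 2 alone (0.44, adjusted p = 0.038). The adjusted p was highest, at 0.17, without WT WY14643 replicate 2. Adjusted p-values are over all probesets within each pair, and not over the 14 pairs.

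Likeness to Mttp was taken on signals minus the mean of the controls of the same run and genotype. Over the 77 treated arrays, the genes most like Mttp among 6233 were Abcd3 (r = 0.868), Sar1b (r = 0.866) and Abhd1 (r = 0.857). Abcd3 is a peroxisomal transporter of fatty acyl-CoA, and Sar1b is the GTPase that starts the vesicles carrying lipoproteins out of the endoplasmic reticulum. These 3 genes were chosen after values were seen, and the arrays share treatments and runs. In WT mice Sar1b rose by 0.76 with WY14643 (adjusted p = 1.2e-08), 0.51 with fenofibrate (adjusted p = 6.5e-05), 0.46 with C22:6 (adjusted p = 0.0012) and 0.42 with C18:3 (adjusted p = 0.0022). Abcd3 rose with the same 4 treatments, by 1.27, 0.88, 0.58 and 0.33, and also with C20:5 by 0.47 (adjusted p = 0.0046). In PPARα −/− mice Sar1b had no call in the 8 treatments, and Abcd3 fell with C22:6 by 0.26 (adjusted p = 0.029).

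Apoa5 was lower after WY14643 in WT mice. Its signals were 11.80, 12.32, 12.20 and 12.32 in treated WT livers, against 12.70, 12.59 and 12.50 in the WT controls, so that every treated liver lay below every control. Apoa5 fell by 0.44 on the log2 scale (SE 0.10, adjusted p = 0.00046), 0.738 times the control level. In a fit of the compared groups alone it was not called (adjusted p = 0.079). Replicate 1, the lowest of the treated livers, was also the lowest of its group for Apoa4 (12.84) and Apoa1 (13.75). Without this liver the Apoa5 change was -0.32 and still called (adjusted p = 0.013).

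In PPARα −/− livers, Apoa5 signals after WY14643 were 12.57, 12.64, 12.69, 12.62 and 12.81, against 12.71, 12.58, 12.55, 12.77 and 12.37 in the PPARα −/− controls. The groups overlapped, with a change of 0.07 (interval -0.09 to 0.24). The change in PPARα −/− mice minus that in WT mice was 0.51 (SE 0.13, adjusted p = 0.0031), and 0.39 (adjusted p = 0.026) without WT WY14643 replicate 1. Fenofibrate gave -0.21 in WT mice (SE 0.10, adjusted p = 0.16), at 12.31, 12.51, 12.33, 12.36 and 12.44, of which only the highest reached the range of the controls. The remaining changes lay between -0.14 (C10:0 in WT mice) and 0.22 (C18:2 in PPARα −/− mice, adjusted p = 0.23).

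Apoa4, whose product is carried on chylomicrons and high density lipoprotein, was called between the genotypes and in no treatment comparison. In run 1 its signals were 13.61, 13.67, 13.53, 13.60 and 13.49 in PPARα −/− controls, against 13.42, 13.13 and 13.19 in WT controls. In run 2 they were 13.81, 13.60, 13.68 and 13.76 in PPARα −/− controls, against 13.15, 13.51, 13.49 and 13.33 in WT controls. The groups did not overlap in either run, and PPARα −/− controls were higher by 0.33 in run 1 (SE 0.09, adjusted p = 0.01) and by 0.34 in run 2 (SE 0.09, adjusted p = 0.0059). Of all genes, 9.72% were called in run 1 and 7.89% in run 2. In a fit of the control groups alone these values were not called (adjusted p = 0.16 in run 1 and 0.25 in run 2). The run 1 call was lost without WT control replicate 2 (0.28, adjusted p = 0.12) or replicate 3 (0.30, adjusted p = 0.064), and the run 2 call without replicate 1 of its WT controls (0.27, adjusted p = 0.071).

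The Apoa4 means of PPARα −/− livers were higher than those of WT livers in all 10 conditions, by 0.255 (C18:2) to 0.536 (WY14643). In 8 of the 10, every PPARα −/− liver exceeded every WT liver, as was so in at least that many conditions for 1.97% of genes. These values are a description, and substrain goes with genotype in all of them. Changes of Apoa4 with treatment were -0.09 to 0.16, and in limma's test an unadjusted p under 0.05 occurred in 1 of 16 comparisons. C20:5 livers were all lower than C18:1 livers in both genotypes, by -0.21 in PPARα −/− mice (adjusted p = 0.37) and -0.22 in WT mice (adjusted p = 0.15), pairs in which 0.192% and 1.43% of genes were called. A further Apoa4 probeset, whose probes can match other transcripts, gave 0.22 (adjusted p = 0.095) and 0.28 (adjusted p = 0.019) between the controls of run 1 and run 2. It fell with WY14643 in WT mice by 0.24 (adjusted p = 0.029), where the brighter probeset gave -0.09 (adjusted p = 0.55), and its change in PPARα −/− mice minus that in WT mice was 0.33 (adjusted p = 0.036).

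**Figure D3:**
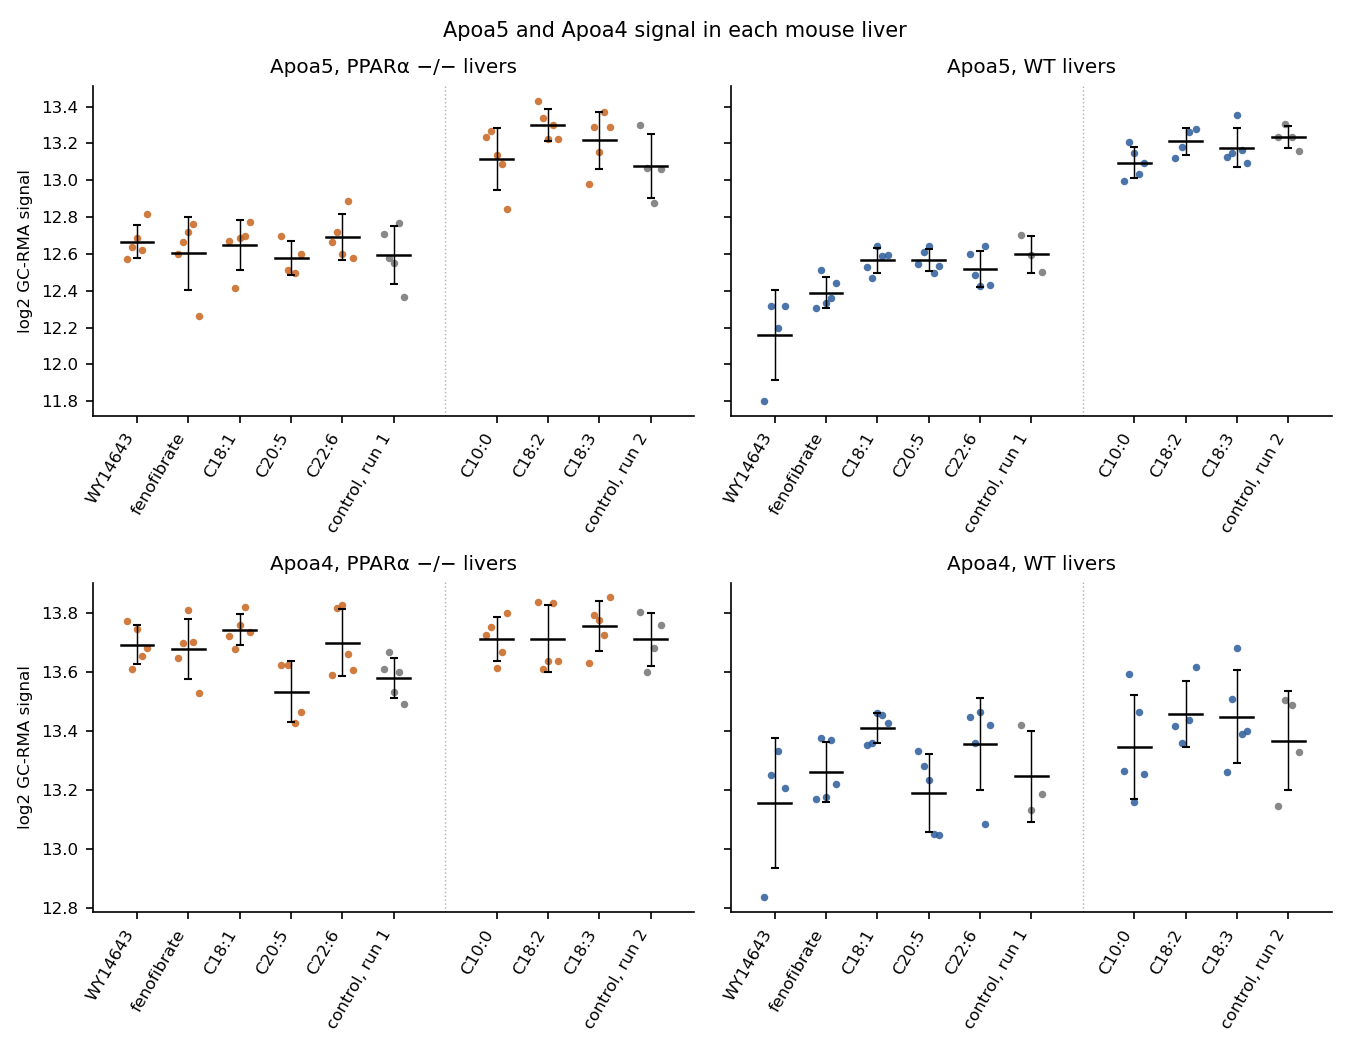
Apoa5 and Apoa4 signal (log2) in each mouse liver, PPARα −/− on the left and WT on the right, with the dotted line between run 1 and run 2 and controls in grey; points are mice, bars means and error bars SD. Apoa5 is lowest in WT livers after WY14643 (mean 12.16), and the Apoa4 means of the PPARα −/− groups (13.54 to 13.76) all lie above those of the WT groups (13.16 to 13.46).

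Apoa4 lies on chromosome 9 in a cluster in the order Apoa1, Apoc3, Apoa4, Apoa5, with no other annotated gene between them. Its window, chr9:46240594-46240843 on the plus strand, is shown beside that of its neighbour Apoa5 because Apoa4 but not Apoa5 was called between the controls of the genotypes. It holds none of the 4 motifs.
Apoa4: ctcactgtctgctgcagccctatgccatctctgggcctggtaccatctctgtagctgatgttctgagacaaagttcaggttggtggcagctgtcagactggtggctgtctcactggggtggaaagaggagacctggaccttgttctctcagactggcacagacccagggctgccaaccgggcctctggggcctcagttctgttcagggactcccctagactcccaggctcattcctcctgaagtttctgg

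After the group means were removed, signals of the cluster's Apoa1 and Apoa4 correlated with r = 0.494 over the 93 arrays, Apoa1 and Apoa5 with 0.475, and Apoa4 and Apoa5 with 0.425. Apoc3, which lies between Apoa1 and Apoa4, gave -0.179 with Apoa1, -0.131 with Apoa4 and -0.011 with Apoa5. These are descriptions over arrays that share runs and normalization. Means of run 2 controls exceeded those of run 1 controls for Apoa1 (by 0.52 in PPARα −/− and 0.46 in WT mice), Apoa5 (0.48 and 0.63) and Apoc3 (0.74 and 0.77), whereas Apoa4 differed by 0.13 and 0.12. Array medians were also higher in run 2 (154 to 167.6) than in run 1 (135.9 to 144.8). The share of all genes that differed between the runs was not counted. The 5′ minus 3′ signal of the pyruvate carboxylase control probesets, a measure of RNA integrity, also differed between the runs, with medians of -3.94 in PPARα −/− and -3.73 in WT controls of run 2 and of -2.27 and -2.36 in those of run 1. With group means removed from both, it was correlated with each gene over the 93 arrays. The r was -0.341 for Apoc3, 0.213 for Apoa4, 0.161 for Apoa1 and 0.148 for Apoa5. Such values hold no difference between runs, and the part of RNA integrity in the run differences was not tested.

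Apoa1, Apoa2 and Apoc3 were not called for any treatment. Apoa1 changed by -0.12 to 0.09, Apoa2 by -0.12 to 0.03 and Apoc3 by -0.11 to 0.08, and the widest confidence interval reached 0.116 to either side. In limma's test an unadjusted p under 0.05 occurred in 2 of 16 comparisons for Apoa1, 1 for Apoa2 and 1 for Apoc3. WY14643 gave Apoa1 signals of 13.75, 13.95, 13.93 and 13.86 in WT livers, against 14.03, 13.92 and 14.03 in the WT controls, which overlapped, for a change of -0.12 (-0.08 without WT WY14643 replicate 1). The change of Apoa1 in PPARα −/− mice minus that in WT mice was 0.19 for WY14643 (adjusted p = 0.061), and it passed the threshold in 5 fits that each left out 1 mouse (0.20 to 0.23, adjusted p = 0.039 to 0.049): WT control replicate 2, WT WY14643 replicate 2 or 3, and PPARα −/− control replicate 1 or 3. Without WT WY14643 replicate 1 it was 0.15 (adjusted p = 0.2). With all mice, further Apoa1 probesets gave smaller differences of 0.15 (adjusted p = 0.15), 0.13 (adjusted p = 0.2) and 0.12 (adjusted p = 0.29). Apoc3 was higher in PPARα −/− controls by 0.14 in run 1 (adjusted p = 0.11) and 0.12 in run 2 (adjusted p = 0.21). Without PPARα −/− control replicate 3 the run 1 difference was 0.18 (adjusted p = 0.033), and the Apoc3 change with C22:6 in PPARα −/− mice was -0.15 (adjusted p = 0.023). Other fits without 1 mouse took that change to -0.08 at the least, with an adjusted p of up to 0.37. Apoa1 signals reached 14.56, and the highest value in the table was 14.94. Whether such bright probesets respond in proportion was not tested.

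Apob had no call, and its values were spread far more widely than those of the other genes. The pooled SD within groups was 0.59 for Apob and 0.0594 to 0.168 for the other 6 genes, and the Apob SD of a group was 0.149 (PPARα −/− C22:6) to 1.12 (PPARα −/− C20:5). After fenofibrate, signals were 11.91, 11.43, 10.52, 9.77 and 10.28 in PPARα −/− livers, against 11.86, 10.92, 11.35, 11.61 and 11.87 in their controls, a change of -0.73 (adjusted p = 0.69). Fenofibrate gave 0.51 in WT mice (adjusted p = 0.52), and the difference between the genotypes was -1.25 (SE 0.58, unadjusted p = 0.034 in limma's test, adjusted p = 0.2). Without WT control replicate 1 it was -0.83 (adjusted p = 0.49), and leaving out any other mouse gave values down to -1.59. Apob changes ranged from -0.73 to 0.51, with intervals of up to 0.909 to either side, so that a change the size of the rise of Mttp with fenofibrate (0.67) lay within the widest of them. An unadjusted p under 0.05 occurred in 0 of 16 comparisons with controls. A further Apob probeset followed the brighter one with r = 0.755 over the arrays, after the group means were removed. On signals minus the mean of their own controls, the gene most like Apob over the 77 treated arrays was Kdelr1 (r = 0.87, given as a description). Kdelr1 returns proteins to the endoplasmic reticulum. With group means removed from both, the same 5′ minus 3′ signal correlated with Apob with r = 0.224 over 93 arrays. Its part in the spread was not tested.

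**Figure D4:**
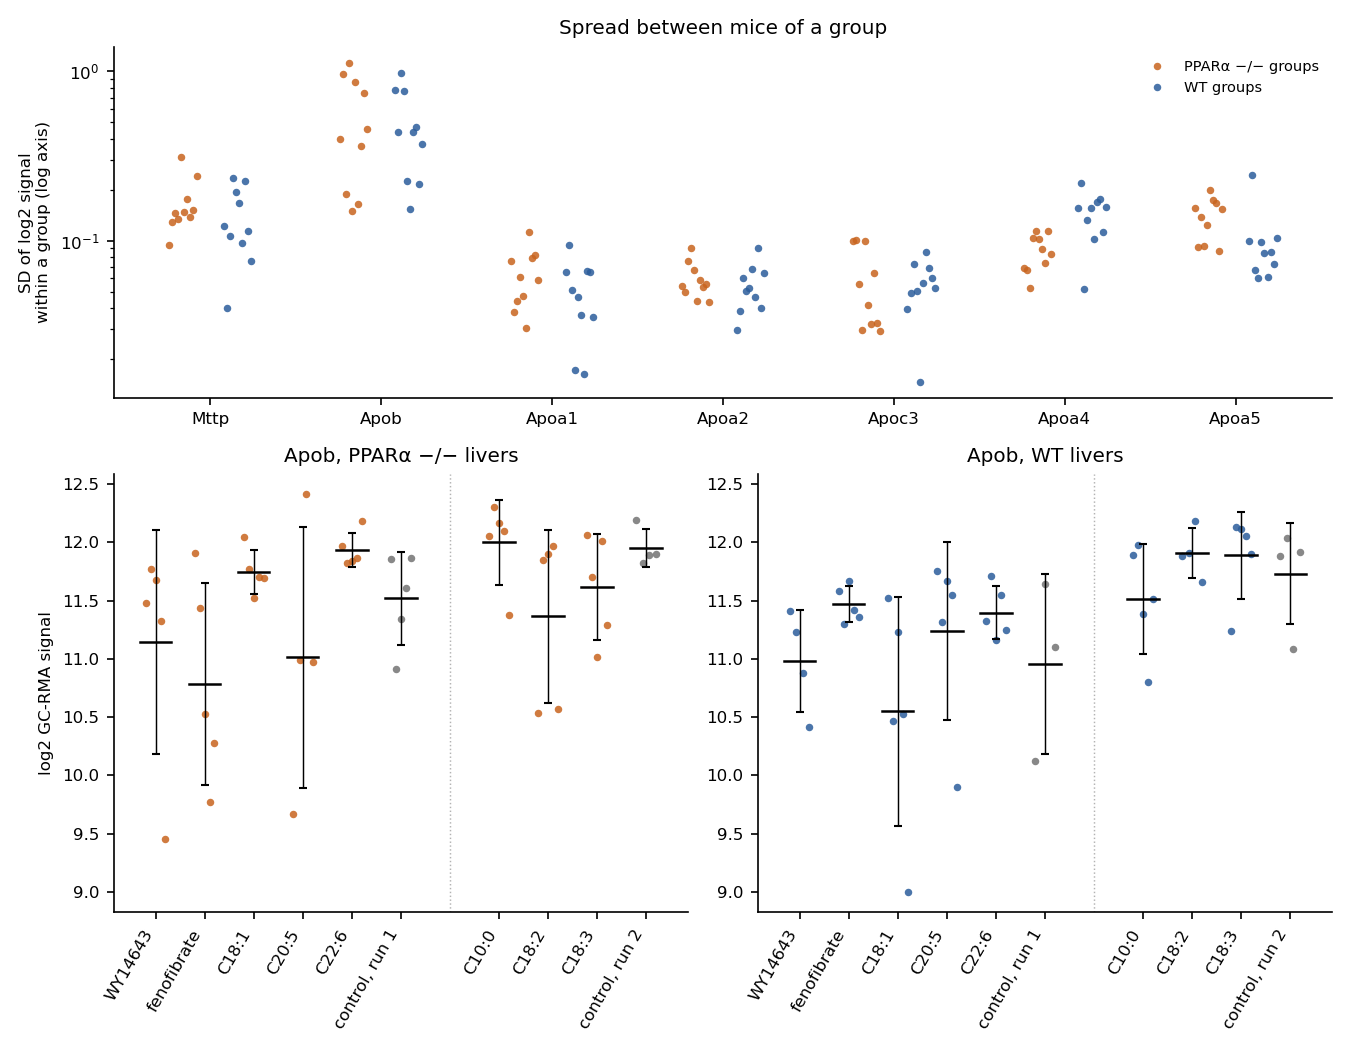
SD of log2 signal within each of the 20 groups for the 7 genes (log axis), and Apob signal (log2) in each mouse liver, PPARα −/− on the left and WT on the right; points are groups in the first panel and mice in the others, where bars are means and error bars SD. Apob has a pooled SD of 0.59, against 0.0594 to 0.168 for the other genes, and single livers reach down to 8.99 in WT C18:1.

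Beside the 7 genes, 4 lists of related genes were counted. These lists were chosen with earlier results of these data known. Their counts are descriptions and do not test an excess over all genes. Of 29 measured genes of lipoprotein assembly and secretion, 11 rose and 1 fell with WY14643 in WT mice, with a median change of 0.01, against -0.08 over all genes, of which 12.1% rose and 16.4% fell. Among those that rose were Cidec, a lipid droplet protein (4.91, adjusted p = 7.3e-08), A1cf, a partner of the enzyme that edits Apob mRNA (2.30, adjusted p = 0.00014), Ces1d, a carboxylesterase that hydrolyses triglyceride (1.44, adjusted p = 0.0027), and Plin2, a lipid droplet coat protein (1.31, adjusted p = 6.9e-05). With fenofibrate 5 rose (7.12% of all genes did) and 1 fell (7.17% of all genes did). With C22:6 (3.46%) and C18:3 (2.29%) the same 3 genes rose, Cidec (2.87 and 2.70), Ces1d (1.15 and 1.30) and Sar1b (0.46 and 0.42). In PPARα −/− mice none of the 29 was called in limma's test for WY14643 or fenofibrate, where 0% and 0.0642% of all genes were called. An unadjusted p under 0.05 occurred in 5 and 4 of them. With C22:6 in PPARα −/− mice, where 6.37% of all genes rose and 9.21% fell, 5 rose, among them Cidec (1.85, adjusted p = 0.025) and Apobec1, the Apob mRNA editing enzyme (1.52, adjusted p = 0.014), and 3 fell, among them Ces1d (-1.07, adjusted p = 0.017).

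Of 12 other apolipoproteins, none rose and 5 fell with WY14643 in WT mice, where 12.1% of all genes rose and 16.4% fell. Their median change was -0.20, against -0.08 over all genes. The acute phase apolipoproteins Saa2 (-3.83, adjusted p = 0.0059), Saa1 (-3.22, adjusted p = 0.0019) and Saa4 (-1.79, adjusted p = 1.3e-07) were among them, as was Apof (-0.33, adjusted p = 0.00081). Saa1 and Saa2 are near-identical copies whose probes cannot be relied on to separate them. Hpx, a plasma protein gene counted as a hepatocyte marker, also fell there, by 0.29 (adjusted p = 0.0011), and Alb had 0.04 (adjusted p = 0.69).

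Of 24 lipoprotein receptors, lipases and transfer proteins, 5 rose and 5 fell with WY14643 in WT mice, beside 12.1% and 16.4% of all genes. Lipg, the endothelial lipase (3.32, adjusted p = 4.6e-08), Vldlr, the VLDL receptor (2.02, adjusted p = 0.00073), and Cd36, a fatty acid transporter (1.93, adjusted p = 6.8e-06), were higher, and Abcg8, a part of the sterol exporter into bile (-1.04, adjusted p = 0.0034), was lower. Of 23 transcription factors known to act on apolipoprotein genes, Foxa3 (-1.19, adjusted p = 0.00025) and Rxra, the partner of PPARα (-0.70, adjusted p = 3.1e-07), fell, and Ppara (0.63, adjusted p = 0.012) and Creb3l3 (0.37, adjusted p = 0.0048) rose with WY14643 in WT mice, beside the same shares of all genes. With C22:6 in PPARα −/− mice 6 of these 23 factors fell and 1 rose, where 9.21% of all genes fell and 6.37% rose, led by Srebf1, a driver of lipid synthesis (-2.33, adjusted p = 8.1e-05), which also fell in WT mice (-1.44, adjusted p = 0.031).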

How the data were processed

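RNA from 93 single mouse livers was hybridised to Affymetrix mouse genome arrays. The authors normalized the arrays with GC-RMA (GCRMA 2.20, per the submitters' processing notes) and deposited linear intensity values for 11463 probesets. The paper gives this number as left after its own filter on variation, so the values do not cover the whole array. These deposited intensities were turned into log2 values here. The number of arrays, not a read depth, limits the precision. The p-values set each change against the spread between mice, pooled over all groups of the fit and moderated across probesets.

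The 51 control probesets were left out, and 10349 probesets with an inter-quartile range of at least 0.25 were tested with limma 3.58.1 (R 4.3.3), with 1 mean per group, on 83 arrays, and on 93 arrays for C10:0. There were 40 comparisons, each with its own Benjamini-Hochberg adjustment: 16 of treatment with control, 8 of the response between genotypes, 2 of controls and 14 of treatments with each other. Probesets were named from GEO's platform annotation; 10279 had 1 gene symbol, 406 several and 727 none. A gene takes its probeset of highest mean. Figures were drawn with matplotlib 3.10.9, and the steps were tested on simulated data.

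Named genes are the members, up to 4 called genes per list with the largest change, and the 3 genes most like a member called in at least 4 of the 16 comparisons with controls. No member was, so those given for Mttp and Apob were chosen after their values were seen, as were Hpx and Alb. The members and lists were chosen with earlier results of these data known. Creb3l3 is in 2 lists.

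Replicate numbers in the labels were checked as pairs. Correlations of same-numbered deviations exceeded 0.1 in every pair only for PPARα −/− mice given WY14643, where no member was called with or without a replicate block. Alternatives were other variation filters, fits of all arrays or of the compared groups alone, an intensity trend, array weights, quantile or median scaling, the study's threshold, any probeset of a gene, the replicate block and leaving out each mouse.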

Additional observations from a re-analysis of the deposited data

Results flagged for a closer look

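In groups of 4 or 5 mice, 10 of 133 sets of gene and group held a liver far from the others by Dixon's criterion, which chance gives in about 1 of 20 sets. Of these, 5 concern Apob, in each case a low liver. They were PPARα −/− WY14643 replicate 5 (9.45, others 11.33 to 11.78), WT C20:5 replicate 5 (9.90, others 11.32 to 11.75), WT control replicate 3 of run 2 (11.09, others 11.88 to 12.04), PPARα −/− C10:0 replicate 5 (11.37, others 12.05 to 12.30) and WT C18:3 replicate 1 (11.24, others 11.90 to 12.13). WT C20:5 replicate 5 was also low for Mttp (9.97, others 10.46 to 10.53). Mttp was 11.11 in WT WY14643 replicate 4 (others 11.19 to 11.20). Apoa5 was 13.36 in WT C18:3 replicate 3 (others 13.09 to 13.16), Apoa4 was 13.09 in WT C22:6 replicate 4 (others 13.36 to 13.47), and Apoa1 was 14.08 in PPARα −/− C18:1 replicate 4 (others 13.97 to 14.01).

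The response differed between the genotypes in limma's test for Mttp with WY14643 (-1.07), C22:6 (-0.88) and fenofibrate (-0.67) and for Apoa5 with WY14643 (0.51), each as the change in PPARα −/− mice minus that in WT mice.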

How the results depend on the processing

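Single values were recomputed for the 45 with an unadjusted p under 0.05 in limma's main test, of which 11 were called. None changed direction under any alternative, but values chosen in this way seldom would. The study's threshold keeps the same estimates and cannot change a direction. The count of treatment calls, 4, became 2 in fits of the compared groups alone, 8 with array weights and 1 with a replicate block. The count of control differences, 2, became 0 in fits of the compared groups alone and 0 with an inter-quartile range of at least 0.5, a filter Apoa4 does not pass. The count for pairs of treatments, 1, became 3 with array weights and 7 at the study's threshold, an unadjusted p under 0.01. At that threshold limma's test called 0.401% (C18:3 against C18:2 in WT mice) to 9.05% (C22:6 against C20:5 in PPARα −/− mice) of all genes in a pair. Shares of all genes under the other alternatives were not counted. Leaving out each mouse gave 4 to 5 treatment calls, 4 to 5 response differences, 1 to 3 control differences and 1 to 2 pairs. With the replicate block, Mttp with WY14643 stayed called in WT mice (1.06, adjusted p = 0.02), and Mttp with fenofibrate (0.72, adjusted p = 0.096), Mttp with C22:6 (0.55, adjusted p = 0.29) and Apoa5 with WY14643 (-0.49, adjusted p = 0.16) did not. With array weights Mttp was also called in WT mice for C18:3 (0.37, adjusted p = 0.0041), C10:0 (0.34, adjusted p = 0.016) and C20:5 (0.35, adjusted p = 0.026) and for WY14643 against fenofibrate (0.37, adjusted p = 0.0013). In all, 9 of 34 uncalled values gained a call with array weights. The others were Apoa1 with WY14643 in WT mice (-0.12, adjusted p = 0.046), its difference between genotypes with WY14643 (0.20, adjusted p = 0.012) and fenofibrate (0.20, adjusted p = 0.046), Apoc3 between run 1 controls (0.17, adjusted p = 0.015) and Apoa4 with C20:5 against C18:1 in WT mice (-0.19, adjusted p = 0.049). The cause of these shifts was not tested.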
